A study of Musculus with 2 samples.

Results

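The dividing fibroblasts of the stromal vascular fraction (SVF) of mouse subcutaneous white adipose tissue (sWAT) were 51 cells among 10013 stromal cells and 26637 deposited barcodes. They were chosen by their own counts: a barcode with at least 500 detected genes and at most 10% mitochondrial UMIs (unique molecular identifiers, each standing for 1 captured RNA molecule), at least 10 UMIs of the proteoglycan gene Dcn, none of Ptprc, Csf1r, Pecam1 or Epcam, and at least 3 UMIs of Mki67 and Top2a together. The comparison cells were the 9709 stromal cells that met the same rule but had 0 UMIs of Mki67 and Top2a. The study compared 1 library from wild-type mice, labelled Control, with 1 library from mice with a knockout of LPCAT3, labelled LPCAT3-AKO. The enzyme LPCAT3 puts polyunsaturated fatty acids back into lysophospholipids. Both SVF suspensions came from mice 5 weeks old by the extraction protocol, while the series text gives an age of 2 months and a diet abbreviated CD. The labels name neither the cells in which the deletion acts, nor its driver, nor how many animals were used for each library. With 1 library per genotype there is no replicate, so no difference between genotypes was tested, and the 95% intervals given cover counting error only.

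Fat tissue grows in young mice partly by making new adipocytes from fibroblast-like progenitors of the stroma. In mouse subcutaneous fat, Dpp4 and Pi16 mark interstitial progenitors, and committed preadipocytes carry Col15a1, Icam1, Fabp4 and Lpl. A cell that divides copies its DNA with the MCM helicase, PCNA and nucleotide enzymes, then condenses and separates its chromosomes with topoisomerase IIα (Top2a), kinesins and cyclin B with Cdk1. Mki67 encodes the Ki-67 coat of mitotic chromosomes, Stmn1 a microtubule regulator, Postn the matrix protein periostin, and Acta2 and Tpm2 contractile filament proteins.

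The libraries held 13831 and 12806 barcodes in Control and LPCAT3-AKO, with a median of 7758 and 8361 UMIs. After the filters 12426 and 11664 barcodes were left, of which 4942 and 5071 were stromal. Of all barcodes, 58 occurred in both libraries, and 0 of these were dividing stromal cells. Dividing cells were deeper than the others: their median was 15682.5 UMIs in Control and 20156 in LPCAT3-AKO, against 9464.5 and 9109 in non-dividing stromal cells. One Control member stood apart. It had 9608 UMIs, carried 129 UMIs of Cma1, 53 of Cpa3 and 45 of Mcpt4, all mast cell proteases, beside 71 of Dcn, and was counted as a member by the rule. Removing the barcodes with the highest doublet scores (Scrublet, which compares each barcode with sums of random pairs) took away 5 of the 10 Control and 9 of the 41 LPCAT3-AKO members.

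Dividing stromal cells were rare in both libraries and made up a larger share of the LPCAT3-AKO library. The share was 0.202% (10 of 4942, exact binomial interval 0.0971% to 0.372%) in Control and 0.809% (41 of 5071, 0.581% to 1.10%) in LPCAT3-AKO. The ratio was 4.0 (1.97 to 8.95). With each cell thinned to 5000 UMIs, which left out 463 and 493 barcodes shallower than that, the shares were 0.123% (6 of 4883) and 0.779% (39 of 5006), a ratio of 6.34 (2.67 to 18.3). Without the Control cell with mast cell genes the ratio was 4.44. A selection on 6 other division genes (Birc5, Cdk1, Cenpf, Nusap1, Ube2c and Tpx2) gave 5.52. The exclusion genes set part of these numbers: among all barcodes with at least 10 Dcn UMIs, 62 of 6329 in Control and 158 of 6601 in LPCAT3-AKO had 3 or more Mki67 and Top2a UMIs, a ratio of 2.44 (1.81 to 3.33). Most of those removed, 47 of 52 and 103 of 117, carried Ptprc or Csf1r, genes of immune cells and macrophages. Epcam, an epithelial gene, was carried by 7 and 50 of those removed, some of which carried more than 1 exclusion gene. Among barcodes with macrophage markers (at least 3 Csf1r UMIs and 1 Ptprc UMI), 13.4% (369 of 2761) had 3 or more such UMIs in the LPCAT3-AKO library against 5.78% (179 of 3099) in Control, a ratio of 2.31 (1.93 to 2.78). The part of such cells in the stromal difference was not tested.

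The other division genes rose over several UMIs on both sides of the cut of 3. Stromal cells with 1 Mki67 or Top2a UMI had a summed level of 262 and 351 CPM (counts per 1000000 UMIs of the group) for a list of mitosis genes in Control and LPCAT3-AKO, close to the 243 and 250 CPM of cells with none. Just outside the cut, the 2 Control and 14 LPCAT3-AKO cells with 2 UMIs had 1128 and 989 CPM. Just inside it, the 2 and 4 cells with 3 UMIs had 1356 and 3573 CPM. The 5 and 24 cells with 20 or more had 11320 and 14374 CPM. For Dcn, 0 dividing cells lay at 5 to 9 UMIs in either library, and 48 of the 51 members had 40 or more.

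To see which stromal state divides, non-dividing cells were clustered without division genes and each dividing cell was placed by the majority of its 15 nearest non-dividing cells. Of 11 clusters, 2 showed most of the committed preadipocyte markers and are called committed preadipocyte-like. The larger was led by Fabp4, a fatty acid carrier, with Sparcl1, Lpl and Col15a1. The smaller was led by genes that included the proteoglycan gene Sdc1 and the secreted growth factor gene Ptn, with Hmcn1, Enpp2 and the actin-binding gene Tagln. Of the 41 LPCAT3-AKO members, 26 were placed in these clusters (63.4%, 46.9% to 77.9%), against 26.8% of non-dividing cells of that library. Of the 10 Control members, 2 were (20%, 2.52% to 55.6%), against 17.9% of non-dividing cells. Those 2 Control cells had 3 Top2a UMIs and 1 Mki67 UMI each, so none was left at a cut of 6 UMIs.

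**Figure D1:**
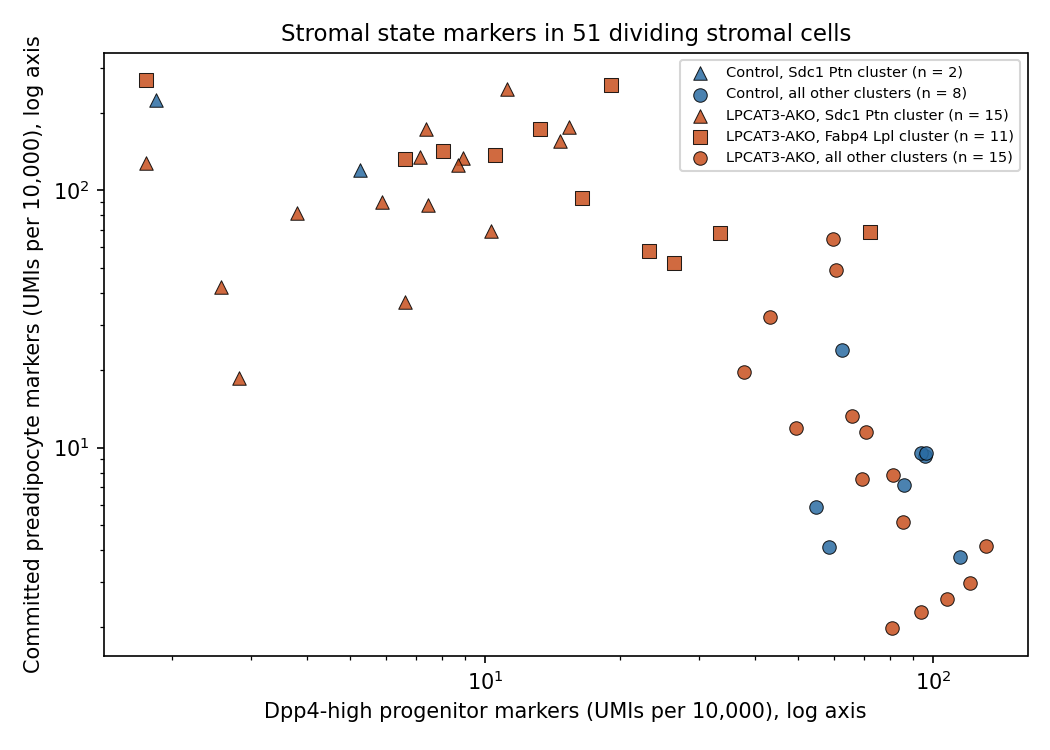
Summed UMIs per 10,000 UMIs of each dividing stromal cell for 2 marker lists, interstitial progenitor markers on the x axis and committed preadipocyte markers on the y axis, both log axes. Colour gives the library and shape the cluster of the nearest non-dividing cells, which these lists helped to define. Among cells placed outside the committed preadipocyte-like clusters, 14 of 15 from LPCAT3-AKO and 8 of 8 from Control have more of the progenitor list, against 1 of 26 and 0 of 2 of the cells inside.

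Single genes set most members placed inside these clusters apart from those outside. Pi16, which encodes a secreted peptidase inhibitor of interstitial fibroblasts, had 1 to 75 UMIs (median 28.5) in the 8 Control members outside the committed preadipocyte-like clusters and 8 to 64 (median 39) in the 15 such LPCAT3-AKO members. Inside those clusters its median was 0 in the 26 LPCAT3-AKO members, though the highest cell had 68. Col15a1, which encodes a basement membrane collagen, ran the other way: 5 to 56 UMIs (median 18) in the 26 members inside, and a median of 0 in the 15 outside. Both genes had at least 5 UMIs in 5 LPCAT3-AKO members and in 0 Control members. These genes took part in the clustering, so the split describes the placement. Outside the committed preadipocyte-like clusters, members were near cells of the Dpp4-high interstitial progenitor-like clusters, of a cluster led by Pgr and Akr1c14, of one led by Socs3 and Cxcl10, and, in LPCAT3-AKO, 4 near one led by Cilp and Ccn5. The Control cell with mast cell genes lay near a cluster led by Cma1 and Mcpt4. No member was placed among the F3-high-like cells, the interferon-high-like cells or a cluster led by H19. For the F3-high-like cluster, with 96 and 140 cells, a count of 0, taken as 3 cells of the total, allows a dividing share of up to 3.12% and 2.14% (exact upper limits 3.77% and 2.60%).

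At the cut of 3 UMIs, the Sdc1 Ptn cluster had the highest dividing share of the 11 clusters in both libraries. It was 1.83% in Control (2 of 109, 0.223% to 6.47%) and 5.86% in LPCAT3-AKO (15 of 256, 3.32% to 9.48%). The clusters outside the committed preadipocyte-like pair were together at 0.200% and 0.420%. Against all other clusters pooled, the Fabp4 Lpl cluster included, the ratio of the Sdc1 Ptn cluster was 10.9 (1.13 to 54.6) and 10.5 (5.15 to 20.5). It was singled out as the cluster of the pair with most LPCAT3-AKO members, so the ratio in that library partly follows from the choice. The Control ratio rests on 2 cells, neither of which is left at a cut of 6 UMIs. The Fabp4 Lpl cluster had 0 dividing of 762 cells in Control, which allows up to 0.394% when taken as 3 cells of the total (exact upper limit 0.483%), and 11 of 1074 (1.02%, 0.512% to 1.83%) in LPCAT3-AKO. Between the genotypes, the dividing share inside the committed preadipocyte-like clusters was 0.230% and 1.95%, a ratio of 8.51 (2.13 to 74.0), and outside them the ratio was 2.10 (0.835 to 5.71), an interval that holds 1. The LPCAT3-AKO library also had more non-dividing cells in these clusters. A weighting used the Control shares of the Sdc1 Ptn cluster, the Fabp4 Lpl cluster and all other clusters pooled. With it, the LPCAT3-AKO dividing rates would give 0.635%, which is 3.10 times the Control rate. Differences in makeup among the pooled clusters were not adjusted for.

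**Figure D2:**
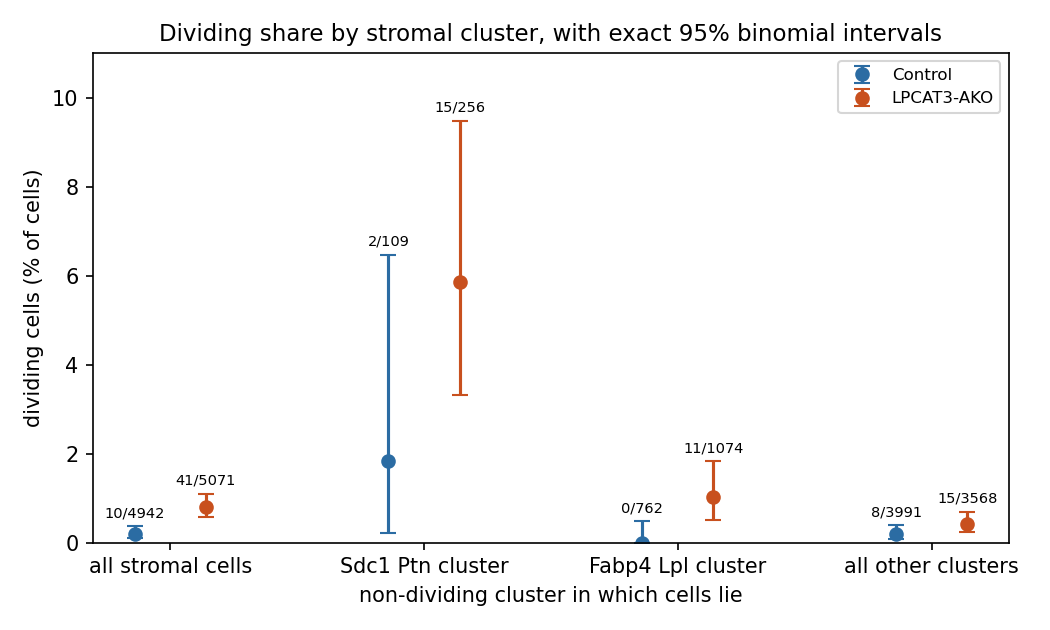
Share of cells that were dividing (y axis, percent of cells) in all stromal cells and by cluster (x axis), with the number dividing over all cells above each point and exact 95% binomial intervals as bars, for the Control and LPCAT3-AKO libraries. The Sdc1 Ptn cluster, singled out by its LPCAT3-AKO members, is highest in both libraries, at 1.83% (2 cells) and 5.86% (15 cells).

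Non-dividing cells of the Sdc1 Ptn cluster also differed from the other clusters in genes near division. Their summed S phase list was 479 CPM in Control and 534 CPM in LPCAT3-AKO, the highest of the 11 clusters in each library, against 351 and 334 CPM in the Fabp4 Lpl cluster. Their Postn was 6457 and 7432 CPM, their Tpm2 87.8 and 114 CPM, and their Tagln 127 and 147 CPM, also the highest of the clusters. The cluster held 2.21% of non-dividing cells in Control and 4.96% in LPCAT3-AKO.

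The division machinery was raised as a whole, although the choice of members fixes its direction. A gene counted as higher or lower when it reached 20 CPM in either group, its levels differed at least 1.5-fold, and the counting interval of the ratio left out 1. By that rule 17.1% of 6968 genes were higher and 5.61% lower in dividing than in non-dividing cells of Control, and 25.4% and 13.6% of 6865 genes in LPCAT3-AKO. In both libraries 11.9% of 6386 genes were higher and 3.48% lower. The median log2 ratio of all genes was 0.17 and 0.18. Of the list for DNA replication and S phase, 41 of 41 measured genes were higher in Control and 38 of 38 in LPCAT3-AKO (median log2 3.45 and 2.999). Of the mitosis list, 60 of 61 and 65 of 66 were higher (5.64 and 6.06). Of the chromatin and tubulin list, 27 of 28 and 28 of 28 were higher (2.72 and 2.83).

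Among these genes, the sliding clamp gene Pcna was at 523 CPM in dividing and 49.2 CPM in non-dividing Control cells, and at 214 and 44.0 CPM in LPCAT3-AKO. Pclaf, which encodes a partner of PCNA, stood at 264 and 0.345 CPM and at 300 and 0.916 CPM. Tyms, the thymidylate synthase gene, had a ratio of 27.6 (19.7 to 37.8) in Control and 14.4 in LPCAT3-AKO. The mitosis genes were nearly absent from non-dividing cells: the kinetochore gene Cenpf was at 246 against 0.323 CPM in Control and 574 against 0.786 CPM in LPCAT3-AKO, and the ubiquitin-conjugating gene Ube2c at 252 against 0.970 CPM and 493 against 1.57 CPM. Genes of general use moved less. Tubb5 and Tuba1b, the tubulin genes that build the spindle as well as resting microtubules, were 5.82 and 4.77 times higher in Control and 6.07 and 5.34 times in LPCAT3-AKO, and the histone variant gene H2afz 8.62 and 11.2 times.

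Cells spread over the cycle. Summed S phase genes ran from 3.09 to 93.0 UMIs per 10,000 (median 44.1) in the 10 Control cells and from 2.98 to 87.2 (median 18.95) in the 41 LPCAT3-AKO cells. Summed mitosis genes ran from 2.32 to 164 (median 57.9) and from 0.745 to 241 (median 114). The ranges of the libraries overlapped on both lists. The S phase list exceeded the mitosis list in 4 of the 10 members from Control and 7 of the 41 from LPCAT3-AKO. In each library 1 member had both lists near the non-dividing medians of 2.15 to 3.19 per 10,000, and each had exactly 3 Mki67 and Top2a UMIs. Another 6 cells, all LPCAT3-AKO and all placed in the committed preadipocyte-like clusters, had at least 5 Mki67 and at most 1 Top2a UMI.

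**Figure D3:**
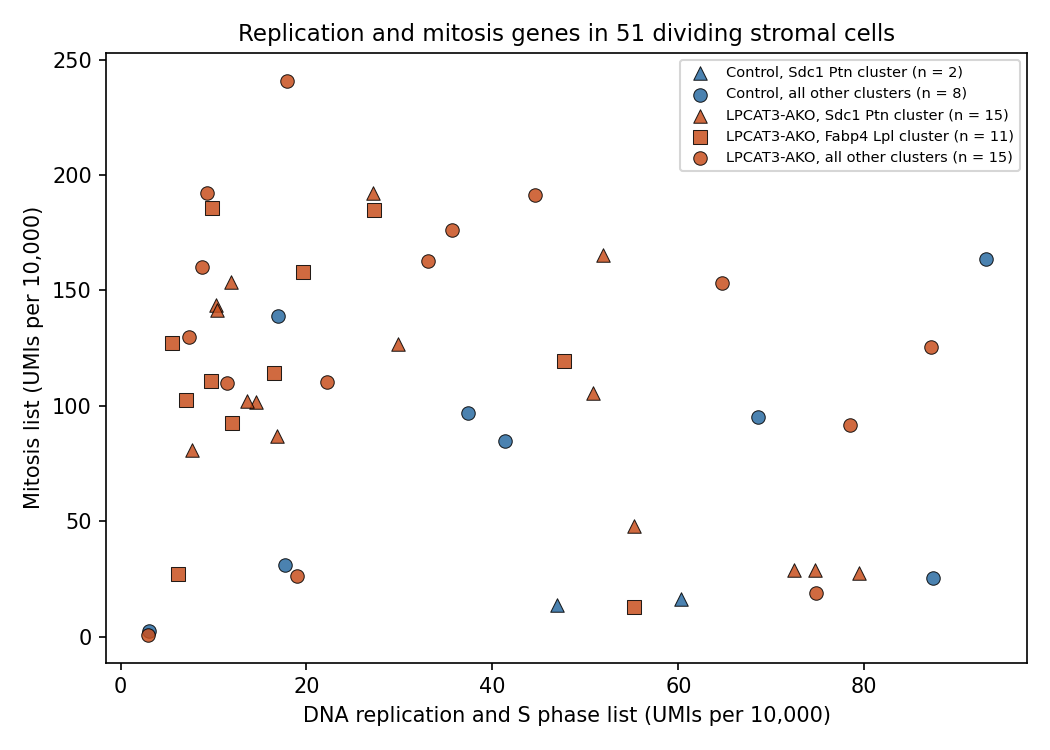
Summed UMIs per 10,000 UMIs of each of the 51 dividing stromal cells, DNA replication and S phase genes on the x axis and mitosis genes on the y axis (Mki67 and Top2a left out), coloured by library and shaped by cluster. The LPCAT3-AKO cells lie at 0.745 to 241 on the mitosis axis and the Control cells at 2.32 to 164, and 1 cell of each library lies near 0 on both axes.

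Cell cycle brakes had calls in both directions. Of the 22 measured genes for CDK inhibitors, D cyclins and quiescence, 6 were higher and 4 lower in Control, and 6 and 6 in LPCAT3-AKO, with 4 higher and 2 lower in both. Over all genes, 17.1% were higher and 5.61% lower in Control, and 25.4% and 13.6% in LPCAT3-AKO, so the share higher in LPCAT3-AKO was near that of all genes. The INK4 inhibitor gene Cdkn2d was 13.1 times higher (8.42 to 19.6) in Control and 8.89 times in LPCAT3-AKO, and Cdk4, the kinase it binds, 3.05 and 2.35 times. Txnip, a thioredoxin-binding gene of resting cells, fell from 578 to 144 CPM in Control and from 851 to 360 CPM in LPCAT3-AKO. Btg2, an antiproliferative gene, was at 427 against 677 CPM and at 270 against 605 CPM.

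The 4 other marker genes of these cells did not behave alike. Stmn1 was a gene of the dividing cells at large: 0 to 36 UMIs (median 6.5) in Control, where 8 of 10 cells had it, and 0 to 52 (median 16) in LPCAT3-AKO, where 40 of 41 did. Only 3.57% and 5.79% of non-dividing cells had a UMI. Its level was 703 against 4.27 CPM (ratio 165, 130 to 208) in Control and 899 against 7.57 CPM (ratio 119) in LPCAT3-AKO. Postn was present in all 51 cells, with 1 to 232 UMIs (median 8.5) in Control and 1 to 360 (median 39) in LPCAT3-AKO. Its level was 2290 against 1305 CPM in Control (ratio 1.75, 1.58 to 1.94) and 3097 against 1783 CPM in LPCAT3-AKO (ratio 1.74). The Postn level differed with where the cells were placed. Postn, Tpm2 and Acta2 were not barred from the clustering, so their splits by cluster and their values at matched makeup describe the placement. The 15 LPCAT3-AKO cells outside the committed preadipocyte-like clusters had 1 to 35 Postn UMIs (median 8) and the 26 inside had 12 to 360 (median 69). Against non-dividing cells weighted to the same cluster makeup, the log2 difference of Postn went from 0.81 to 0.03 in Control and from 0.80 to -0.35 in LPCAT3-AKO. In Control, 1 cell held 60.9% of its UMIs.

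Tpm2 and Acta2 were found in fewer members than Stmn1 and Postn. Tpm2 had UMIs in 3 of 10 Control cells, 1 of which held 84.6% of them, and in 19 of 41 LPCAT3-AKO cells, 18 of them in the committed preadipocyte-like clusters. Its log2 ratio was 2.98 in Control and 3.44 in LPCAT3-AKO, and 1.57 and 1.84 against the matched makeup. The Control values rest on 13 UMIs, most of them in that 1 cell. In LPCAT3-AKO the level of Tpm2 stayed above the matched reference. Acta2 had UMIs in 2 of 10 Control cells (2 and 6) and in 11 of 41 LPCAT3-AKO cells. A pair of LPCAT3-AKO cells with 31 and 53 UMIs held 86.6% of its 97 UMIs there, so its level of 110 against 4.80 CPM describes those 2 cells. Both also carried Tpm2, at 19 and 32 UMIs, and were placed in the Sdc1 Ptn cluster. Outside the committed preadipocyte-like clusters, 0 of 8 Control and 1 of 15 LPCAT3-AKO members had an Acta2 UMI. In barcodes with macrophage markers, which should lack them, Tpm2 was found in 1.97% and 3.11% and Acta2 in 1.03% and 2.35% (median depth 8388 and 10243 UMIs), against 5.71% and 8.01% and 0.804% and 1.52% of non-dividing stromal cells. Of the named markers, Postn and Tpm2 were higher in LPCAT3-AKO members placed in the committed preadipocyte-like clusters than in those outside. Both genes were left in the clustering, so this split describes the placement. Acta2 had UMIs in 10 of the 26 LPCAT3-AKO members inside, with a median of 0.

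**Figure D4:**
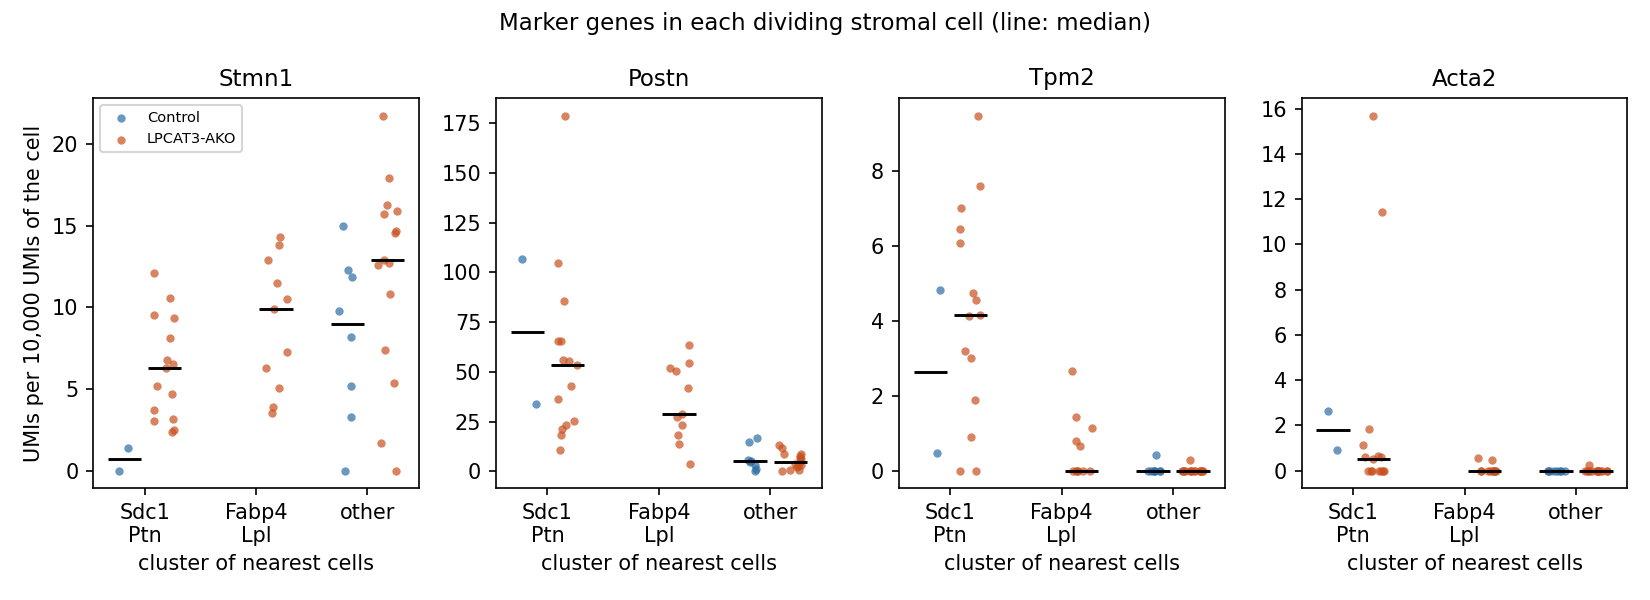
UMIs per 10,000 UMIs of each dividing stromal cell (y axis, own scale for each gene) for Stmn1, Postn, Tpm2 and Acta2, by the cluster of the nearest non-dividing cells (x axis) and library; each point is 1 cell and the line the median. Stmn1 is found in cells of every cluster group, while 13 of the 19 LPCAT3-AKO cells with Tpm2 and 8 of the 11 with Acta2 lie in the Sdc1 Ptn cluster, where 2 cells stand above all others for Acta2.

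The summed level of actin skeleton genes was higher in dividing cells, also at matched makeup. Of all genes, 17.1% were higher in Control and 25.4% in LPCAT3-AKO against unmatched non-dividing cells. Of 24 actin and contractile genes measured in Control 13 were higher and 0 lower. Of 26 in LPCAT3-AKO 23 were higher and 0 lower, and all 13 were shared. The summed level of the list was 1.66 times higher (1.59 to 1.74) in Control and 2.10 times in LPCAT3-AKO, and 1.59 and 1.64 times at matched makeup. Inside the committed preadipocyte-like clusters its ratio was 2.50 in Control, from 2 members, and 2.03 in LPCAT3-AKO. Outside those clusters the ratio was 1.35 and 1.59. The rise included the actins of every cell: Actb was at 3798 against 2302 CPM in Control and 4573 against 2190 CPM in LPCAT3-AKO. Tagln2, an actin-binding gene, was 3.63 and 4.49 times higher, and the tropomyosin gene Tpm4 2.87 and 3.15 times.

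Matrix genes of activated fibroblasts did not rise together. Of 38 measured genes in Control 6 were higher and 8 lower, and of 40 in LPCAT3-AKO 10 were higher and 9 lower. The shares over all genes were 17.1% higher and 5.61% lower in Control, and 25.4% and 13.6% in LPCAT3-AKO. The shares of matrix genes that were higher were near these. The fibrillar collagen gene Col1a1 had 9 to 117 UMIs (median 55) in Control and 23 to 273 (median 95) in LPCAT3-AKO, and passed the rule in neither. Eln, the elastin gene, was at 349 against 797 CPM in Control and 217 against 953 CPM in LPCAT3-AKO, and the gelatinase gene Mmp2 at 385 against 977 CPM and 494 against 1099 CPM. Timp1, an inhibitor of such proteases, was 7.48 times higher in Control, where 1 cell held 96.6% of its UMIs, and 4.06 times in LPCAT3-AKO.

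The summed levels of genes for growth were moderately higher. Of all genes, 17.1% were higher in Control and 25.4% in LPCAT3-AKO. Of the ribosome biogenesis and nucleotide list 12 of 28 genes were higher in Control and 12 of 26 in LPCAT3-AKO, with 0 lower. The sum was 1.56 and 1.504 times higher, and 1.52 and 1.32 times at matched makeup. Inside the committed preadipocyte-like clusters its ratio was 2.71 in Control, from 2 members, and 1.54 in LPCAT3-AKO. Outside those clusters the ratio was 1.13 in Control and 1.31 in LPCAT3-AKO. Ncl, the nucleolin gene, was at 667 against 339 CPM in Control and 510 against 289 CPM in LPCAT3-AKO. Of 29 oxidative phosphorylation genes 8 and 13 were higher and 0 lower, among them Cycs (2.52 and 2.75 times), which encodes cytochrome c. Glycolysis genes were higher in 4 of 15 and 6 of 13 cases. Their median log2 ratio was 0.42 in Control and 0.05 in LPCAT3-AKO, against 0.17 and 0.18 over all genes. Gapdh was 1.58 and 1.75 times higher. Lipid genes had calls in both directions in LPCAT3-AKO, where 25.4% of all genes were higher and 13.6% lower, and 1 call in Control. Cholesterol and fatty acid synthesis had 0 of 12 genes past the rule in Control and 3 higher and 3 lower of 16 in LPCAT3-AKO. Of the genes that remodel phospholipid acyl chains or make phosphatidylcholine, 1 of 13 was higher in Control and 4 were higher and 3 lower of 14 in LPCAT3-AKO, with none shared. Lpcat3 itself had 3 UMIs in the 10 Control cells (18.0 against 27.0 CPM in non-dividing cells) and 32 UMIs in 22 of the 41 LPCAT3-AKO cells (36.2 against 29.4 CPM). It passed the rule in neither, and whether the counted end of the transcript lies in the deleted part is not given in the labels, so this level does not check the knockout.

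The summed levels of receptors and secreted regulators were lower. Of all genes, 17.1% were higher and 5.61% lower in Control, and 25.4% and 13.6% in LPCAT3-AKO. Of receptors for growth factors and hormones, 8 of 24 were lower and 1 higher in Control, and 13 of 23 lower and 1 higher in LPCAT3-AKO; 6 were lower in both. The TGF-β receptor gene Tgfbr2 was at 415 against 772 CPM in Control and 266 against 654 CPM in LPCAT3-AKO. The receptor kinase gene Axl was at 385 against 702 CPM and 283 against 647 CPM. Of growth factors and their binding proteins 5 of 26 were lower and 1 higher in Control, and 12 of 28 lower and 4 higher in LPCAT3-AKO. Igfbp5, which binds insulin-like growth factors, fell from 3488 to 1274 CPM in Control and from 2827 to 601 CPM in LPCAT3-AKO. At matched makeup its log2 difference was -1.26 and -1.12, and the summed ratio of the receptor list, 0.655 and 0.630 before, was 0.671 and 0.723. That of the growth factor list went from 0.632 and 0.575 to 0.663 and 0.719.

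Many complement, stress and cytokine genes were lower too, where 5.61% of all genes were lower in Control and 13.6% in LPCAT3-AKO. The shares of all genes that were higher were 17.1% and 25.4%. Of complement and protease inhibitor genes 7 of 13 were lower in Control and 10 of 13 in LPCAT3-AKO, 6 of them in both. In this list 0 and 1 were higher. Timp2 was at 1863 against 2986 CPM in Control and 1439 against 2993 CPM in LPCAT3-AKO, and C1s1, a complement protease gene, at 300 against 548 CPM and 255 against 558 CPM. Of immediate-early and heat shock genes 9 of 27 and 19 of 27 were lower, with all 9 shared, and 5 and 2 were higher. Jun had ratios of 0.407 and 0.543 and Egr1 of 0.523 and 0.464; both encode transcription factors that appear within minutes of a stimulus, tissue digestion included. The chaperone gene Hsp90aa1 went the other way, 2.54 and 2.02 times higher. Of 23 and 22 cytokine and NF-κB genes 9 and 11 were lower and 4 and 2 higher. The summed ratio of that list was 0.892 and 0.661, but 1.14 and 0.883 at matched makeup, so its direction turned in Control. For Cxcl1, a neutrophil chemokine gene, the log2 difference of -0.61 in Control and -0.82 in LPCAT3-AKO came to -0.06 and -0.10 at matched makeup.

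The summed level of adipocyte commitment genes was higher in the dividing cells against the unmatched reference. At matched makeup it was so in Control alone, where members outside the committed preadipocyte-like clusters showed no rise. In Control 6 of 12 measured genes were higher and 1 lower, where 17.1% and 5.61% of all genes were. In LPCAT3-AKO 7 of 13 were higher and 2 lower, where 25.4% and 13.6% of all genes were. Fabp4 had 0 to 210 UMIs (median 0) in Control, where 4 of 10 cells had it, and 0 to 299 (median 18) in LPCAT3-AKO, where 28 of 41 did. The summed ratio of the list was 1.43 and 1.42, below the 1.5-fold asked of single genes, and 1.34 and 0.952 at matched makeup. Inside the committed preadipocyte-like clusters it was 1.42 in Control, from 2 members, and 0.949 in LPCAT3-AKO. Outside them it was 0.973 and 0.907. Of 5 markers of mature adipocytes, 4 were at 0 UMIs in Control and only Cidec, a lipid droplet gene, in LPCAT3-AKO. Their sum was 96.1 against 39.8 CPM in Control and 319 against 48.4 CPM in LPCAT3-AKO. Most of it was Car3, a carbonic anhydrase gene, which was higher in both. In Control 1 cell held all of its UMIs, and in LPCAT3-AKO 1 of 9 cells held 78.1%. Ebf2, an early gene of the adipocyte lineage, was lower in both, with ratios of 0.45 (0.277 to 0.701) and 0.575 (0.476 to 0.690), though its log2 difference at matched makeup was -0.99 in Control and -0.16 in LPCAT3-AKO.

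**Figure D5:**
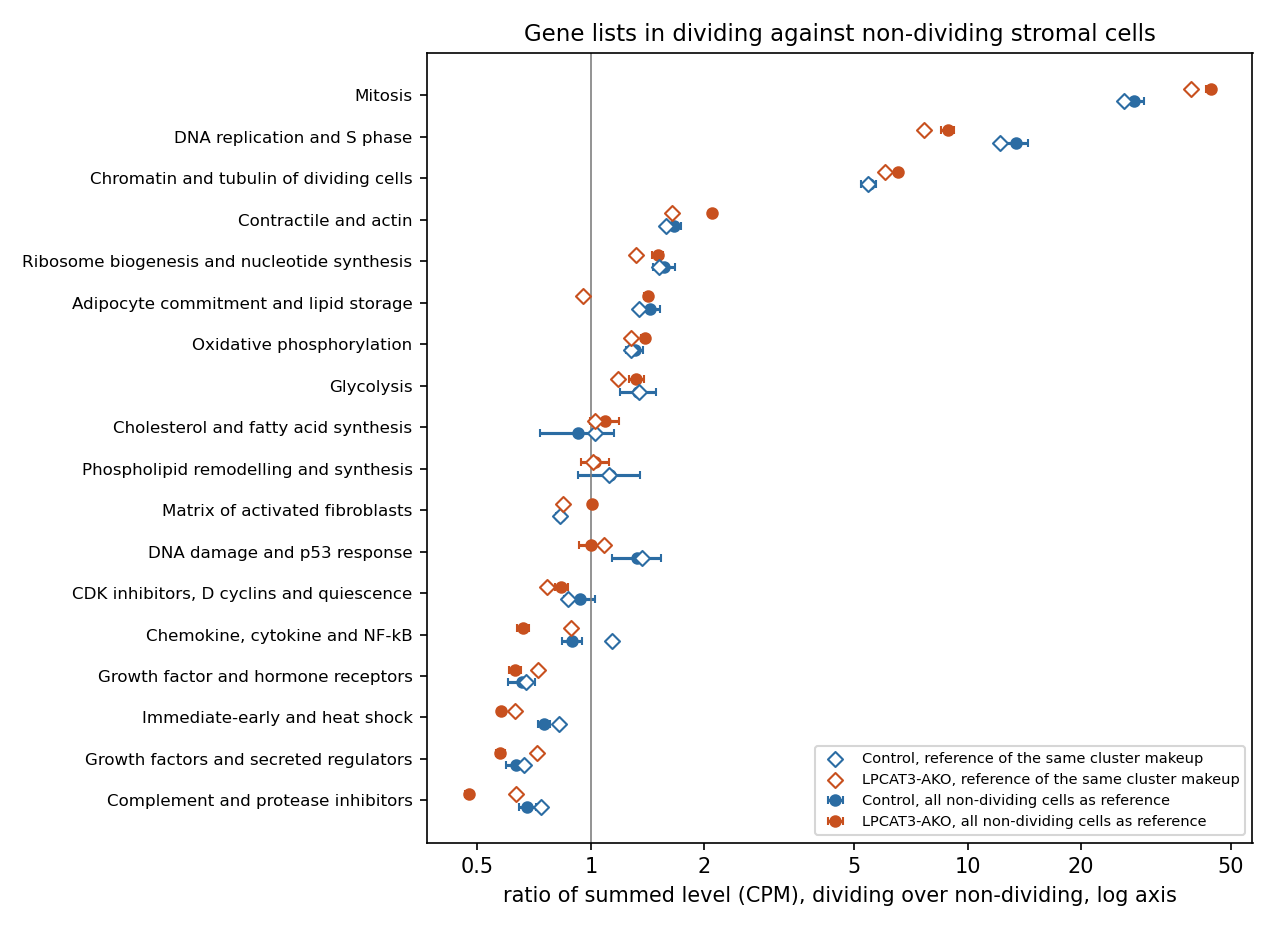
Ratio of the summed level in CPM of 18 gene lists, dividing over non-dividing stromal cells (x axis, log axis), for each list (y axis) and library. Filled points use all non-dividing cells as the reference, with exact 95% counting intervals as bars; open diamonds use non-dividing cells weighted to the cluster makeup of the dividing cells. The 3 division lists lie above 5, the actin list at 1.66 and 2.10, and the receptor and growth factor lists at 0.655 or lower in both libraries.

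Outside the division lists, the genes with the largest rises in both libraries were again genes of the cycle. They were Cenpm, Pimreg, Asf1b, Spag5, Cep55, Neil3, Nek2, Iqgap3, Shcbp1, Knstrn, Gmnn and Pmf1. Cenpm, a centromere gene, was at 168 against 0.496 CPM in Control and 106 against 0.655 CPM in LPCAT3-AKO. Gmnn, which encodes the replication licensing inhibitor geminin, was at 60.1 against 1.03 CPM and 71.3 against 1.03 CPM. The largest falls were in Igfbp3, Mrgprg, Npy1r, Ptgs2os, Nr4a3, Sult1a1, Ndrg2, Tgfbi, Galnt15, Myoc, Trib1 and Arl4d. Galnt15, an O-glycosylation gene, fell from 173 to 42.1 CPM in Control and from 140 to 23.8 CPM in LPCAT3-AKO. Nr4a3, Ndrg2 and Tgfbi were at 0 UMIs in the Control members, where 3 UMIs would be 18.0 CPM.

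Between genotypes, 426 of 7101 genes (6%) were higher and 482 (6.79%) lower in LPCAT3-AKO than in Control dividing cells, with a median log2 ratio of -0.02 over all genes. As there is 1 library of each, and the Control group is 10 cells, these describe the 2 groups of cells. Of 66 mitosis genes 27 were higher and 0 lower (median log2 0.62), and of 42 S phase genes 0 were higher and 12 lower (median -0.70). Cenpf was 2.33 times higher (1.69 to 3.28) and Pcna was at a ratio of 0.409 (0.316 to 0.534). Of 26 actin and contractile genes 10 were higher and 0 lower, and of 13 markers of Dpp4-high progenitors 0 were higher and 8 lower. Immediate-early and heat shock genes were lower in 14 of 26 cases and cytokine genes in 11 of 23. The dividing cells of the libraries differed in cluster makeup. With cells outside the committed preadipocyte-like clusters alone, 8 against 15, the median of the mitosis list was 0.34, of the S phase list -0.40, of the contractile list 0.21 and of the progenitor list -0.28. No phospholipid remodelling gene of 14 passed the rule in either direction.

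The single genes at the ends of this comparison differed in how many cells bore them. Myh4, a fast muscle myosin gene, was at 71.3 CPM in LPCAT3-AKO, in 8 cells of which 1 held 44.4%. It, Rlim, Frem1, Lrrc15 and Nrgn were at 0 UMIs in the Control members, while Rlim was found in 31 LPCAT3-AKO cells. Frem1, a basement membrane gene, and Lrrc15, a membrane protein gene of activated fibroblasts, were at 62.2 and 48.6 CPM, in 20 and 14 cells, all placed in the committed preadipocyte-like clusters. The 6 genes with the lowest ratios were Cpa3, Mcpt4, Cma1, Tpsb2, Hdc and Mrgprb1, all mast cell genes, and the Control cell described above held all Control UMIs of 5 of them and 91.7% of Tpsb2. Without that cell, 400 genes were higher and 488 lower.

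Apart from the mast cell genes of 1 Control cell, which brought that list to 649 CPM against 7.67 CPM, the marker lists of non-stromal cells were at most 210 CPM, the adipocyte list given above left aside. Of 9 epithelial genes all were at 0 in Control and 5, among them Krt5, Krt14 and Epcam, in LPCAT3-AKO; the sum was 13.6 CPM there against 19.1 CPM in non-dividing cells. The T and NK cell list was at 0 in both. The macrophage list, with Ptprc and Csf1r at 0 by the rule, summed to 210 against 182 CPM in Control and 143 against 185 CPM in LPCAT3-AKO, and ran from 0.416 to 15.6 and from 0 to 4.13 UMIs per 10,000 over the cells. Of 9 mural cell genes 6 were at 0 in Control and 2 in LPCAT3-AKO, Myh11 in both, and Rgs5 was at 0 in Control. The endothelial list summed to 84.1 against 69.7 CPM in Control and 31.7 against 48.4 CPM in LPCAT3-AKO, with Pecam1 at 0 by the rule and Cdh5 at 0 in both. The part of RNA from other cells in these sums was not tested. One Control member held all 10 UMIs of Des, an intermediate filament gene of muscle and pericytes, with 6 of Acta2 and 11 of Tpm2. Muscle progenitor genes Pax7, Myod1 and Myf5, the Schwann cell gene Sox10, and the mesothelial genes Msln and Upk3b were at 0 in both libraries. Dcn, which chose both groups, was lower in the members. It had 36 to 194 UMIs (median 66) in Control and 30 to 308 (median 94) in LPCAT3-AKO, with a level of 4982 against 8222 CPM and 4955 against 8871 CPM.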

How the data were processed

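Single-cell RNA libraries made with 10x Genomics chemistry were analysed from the deposited filtered matrices, whose values are raw UMI counts per gene and barcode. Per the file headers and the submitters' processing notes, the authors ran Cell Ranger 6.1.2 on mm10; the notes also name Seurat 4.10, whose role is not given in the sources used here. Cells were not annotated in the files used. Counts were summed per group of cells and divided by the group's total UMIs; log2 ratios use a pseudocount of 1 CPM. Shares have exact Clopper-Pearson 95% intervals, and ratios exact conditional binomial intervals; no test was run, since each genotype has 1 library, and the interval code was checked on simulated data. Totals were 111669076 UMIs in Control and 119355147 in LPCAT3-AKO. Clustering used 2000 variable genes without division, mitochondrial, ribosomal, histone and sex-linked genes, 30 principal components, 15 neighbours and Leiden resolution 0.5 (scanpy 1.11.5, leidenalg 0.10.2, scikit-learn 1.9.0). A cluster was named when over 50% and at least 3 of a state's markers were shown (at least 20% of cells and 30% of the top cluster's level), and its 10 leading genes held no more markers of any other class than of that state. Doublets were not removed in the main result; Scrublet scores served as an alternative. The genes named are those of the selection rule, the 4 other markers, Lpcat3, up to 4 of each list with the highest level among those past the size rule alike in both libraries (or of all its members where none passed), the 12 highest and 12 lowest outside the division lists, and the 6 highest and 6 lowest between genotypes; Tagln, Col15a1, Col1a1, Ebf2 and Cidec, and the leading genes of clusters, were named after their values were seen. Members, lists and rules were chosen with earlier results of these data known. Some genes that this rule names are not reported here.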

Additional observations from a re-analysis of the deposited data

Results flagged for a closer look

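In all, 16 genes passed the size rule in opposite directions in the 2 libraries when dividing were compared with non-dividing stromal cells; the difference between the libraries was not tested. Of these, 7 were higher in Control and lower in LPCAT3-AKO, given as log2 ratios in that order. They were Cp (1.06 and -0.71), a plasma copper protein gene, the cytokine gene Il6 (0.93 and -1.23), the proteoglycan gene Srgn (1.64 and -1.07), the sheddase gene Adam17 (0.84 and -0.87), Phf11d (0.999 and -0.67), Scaf8 (1.08 and -0.82) and the hyaluronan synthase gene Has1 (0.64 and -0.84). The other 9 were lower in Control and higher in LPCAT3-AKO. They were Man1a2 (-1.05 and 0.60), the translation repressor gene Eif4ebp1 (-1.42 and 0.63), Hmgn3 (-2.60 and 1.07), Arhgap18 (-4.60 and 0.88), the eotaxin gene Ccl11 (-1.12 and 0.89), Serpina3n (-1.98 and 1.12), the growth arrest gene Gas1 (-1.03 and 0.67), the matrix proteoglycan gene Bgn (-1.18 and 0.68) and Heph (-1.93 and 0.83).

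Single cells weighed in several of these. In Control, 72.7% of Srgn, 52.2% of Phf11d and 43.6% of Has1 UMIs were in 1 cell, and Hmgn3 and Serpina3n were each seen in 1 cell; Arhgap18 was at 0 UMIs there, so its ratio depends on the pseudocount. At matched cluster makeup the LPCAT3-AKO ratios of Gas1 and Bgn came to 0.10 and -0.05, while those of Hmgn3 and Arhgap18 were 1.19 and 1.21.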

How the results depend on the processing

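No paired analysis was possible because each group has 1 library. The dividing share stayed higher in LPCAT3-AKO, with ratios from 3.94 to 7.02 over the 10 alternatives of cut, filter, doublets, thinning and selector, the highest at a cut of 6 Mki67 and Top2a UMIs. It was 2.44 with no exclusion genes. At the Control makeup, with the clusters outside the committed preadipocyte-like pair pooled, it was 3.10. At that cut of 6, which leaves 5 Control cells, 0% of Control cells were placed in the committed preadipocyte-like clusters, Control log2 ratios of Acta2 and Postn were -1.50 and -1.34, reversing the direction, 254 genes were lower in Control, and 3 lists were higher and 0 lower in both libraries, against 5 and 2. A cut of 2 UMIs left 1 lower list. A ratio of 2 gave 257 lower genes in Control, 859 higher and 450 lower in LPCAT3-AKO, and 3 higher and 0 lower lists. Thinning to 5000 UMIs, which also left out shallower cells, gave 764 higher and 138 lower genes in Control and 543 lower in LPCAT3-AKO. The part of each change was not tested. Removing doublet candidates gave 5 lower lists and the mean over cells 1; the cause was not tested. The matched cluster makeup, an alternative chosen after seeing the data, gave 0 lower lists and a Postn log2 ratio of -0.35 in LPCAT3-AKO. Comparing only members outside the committed preadipocyte-like clusters, a choice likewise added later, left fewer cells and 220 genes higher in LPCAT3-AKO. The main results were the share ratio, the placement, and the counts of genes and lists. For these, 123 values moved by less than 1.5 times or stayed within their counting interval, and 17 moved further. Of the other values checked, such as ratios of single markers and lists, 499 stayed so, 138 moved further and 3 reversed direction. With 10 Control cells, a gene at 0 can still lie at 18.0 CPM.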
